A study of Homo sapiens with 12 samples.

Results

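The genes described here encode the cytochrome P450 enzymes (CYP), the UDP-glucuronosyltransferases (UGT) and the cytosolic sulfotransferases (SULT). All probe sets were taken whose single annotated symbol is a CYP gene with family number, subfamily letter and member number, a UGT gene or a SULT gene. That gave 122 of the 54613 probe sets tested, for 64 of 19775 genes: 92 probe sets of 47 CYP genes, 14 of 9 UGT genes and 16 of 8 SULT genes. For 29 of the genes there was more than 1 probe set, with at most 7 for a gene. Another 23 probe sets of these families carry several symbols, among them those of CYP3A7 and most of the UGT1A cluster, and were not members. Of these 23, 0 passed the test for DAAD-2 in either line (limma, adjusted p under 0.05). Of all probe sets 1.04% were higher and 0.417% lower in SNU-449 and none passed in HEP3B, so that 0 of 23 says little. Affymetrix Human Genome U133 Plus 2.0 arrays were hybridised with total RNA of 2 human hepatocellular carcinoma cell lines, with 3 arrays in each of 4 groups and 12 arrays in all. The groups were HEP3B treated with 2 μM DAAD-2, HEP3B given 0.1% dimethyl sulfoxide (DMSO), SNU-449 treated with 20 μM DAAD-2 and SNU-449 given 0.1% DMSO, each for 72 h. DAAD-2 is a dehydroabietylamine derivative that carries an N-acetyl cysteine group, and the labels call HEP3B sensitive and SNU-449 resistant to it. Each line is a single culture model of liver cancer, and the doses differ, so that line and dose cannot be told apart in any contrast of the treated cells. The 3 arrays of each group are given as triplicate samples, and the methods speak of independent experiments for the data in general, without saying this of the array cultures. The p-values therefore refer to array-to-array spread, part or all of which may be technical.

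P450 enzymes are haem proteins that put oxygen into drugs, steroids, fatty acids and vitamins, with electrons passed to them by partner proteins such as cytochrome P450 reductase. UGT enzymes then attach glucuronic acid and SULT enzymes attach sulfate to hydroxyl groups, which makes the products soluble enough to be excreted. The adult hepatocyte holds most of this capacity, and liver cancer lines often keep only a part of it.

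The values are log2 levels made with RMA, and array medians lay between 3.71 and 3.85. In HEP3B the medians of the DAAD-2 arrays (3.73, 3.71 and 3.74) were all below those of the DMSO arrays (3.77, 3.79 and 3.79). Correlations between arrays of a group over all probe sets were between 0.984 and 0.995. Of 9 measured hepatocyte genes, 8 were higher in HEP3B than in SNU-449 under DMSO and 1, the fibrinogen chain FGB, was lower. Albumin averaged 14.53 in HEP3B and 3.18 in SNU-449, so that the defining hepatocyte marker was high in HEP3B and near the floor in SNU-449. Of 4 measured leukocyte markers 2 were higher in HEP3B (LYZ with 12.14 against 3.06 and CD14 with 5.37 against 3.32 in SNU-449), 1 was lower (CD3E, by 0.59), and the defining PTPRC averaged 3.23 in HEP3B and 3.21 in SNU-449 (limma). Their mean level per array was 6.07 to 6.32 in HEP3B DAAD-2, 6.18 to 6.33 in HEP3B DMSO, 3.55 to 3.69 in SNU-449 DAAD-2 and 3.60 to 3.66 in SNU-449 DMSO, and its part in the differences between the lines was not tested. Of 6 mesenchymal genes 1 was higher in HEP3B under DMSO, FN1 (11.56 against 10.75 in SNU-449), and 5 were lower (limma). Among the lower ones were VIM (10.24 against 13.94) and ZEB1 (3.12 against 7.79). The part of these genes in the differences between the lines was not tested. Of 6 endothelial and stellate markers, 0 differed between the lines at an adjusted p under 0.05 in limma. In SNU-449 the DAAD-2 arrays and the DMSO arrays differed in 1 of the 9 hepatocyte genes, FGB (log2 fold change 1.56, adjusted p = 0.00947, limma), and in 1 of 6 mesenchymal genes, COL1A1 (1.21, adjusted p = 0.0232, limma); both were higher, and their part in the results below was not tested. The 3′ minus 5′ signal of GAPDH, a sign of RNA integrity, was 1.99 on SNU-449 DAAD-2 replicate 2, against 0.34 to 0.97 on the other SNU-449 arrays and 0.45 to 1.51 on the HEP3B arrays.

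Most members were at low levels in these cells. A probe set is called present below where the mean of a group is over log2 5, a working cut and not a detection call, since the values carry none. By that cut 86 of the 122 probe sets, and all probe sets of 39 of the 64 genes, were present in no group, with group means between 2.63 and 4.89. The 13 probe sets of 5 steroid hormone P450 genes were among these 86. The share of members present was 18% in HEP3B DAAD-2, 17.2% in HEP3B DMSO, 19.7% in SNU-449 DAAD-2 and 18% in SNU-449 DMSO, against 31% to 31.3% of all probe sets. Under DMSO 12 members were present in HEP3B alone, 13 in SNU-449 alone and 9 in both.

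The first comparison was that of the lines under DMSO, which shows the levels in the vehicle controls. UGT2B4, SULT1A1, SULT2A1 and CYP39A1 were higher in HEP3B, and CYP1B1, CYP24A1, SULT1C4 and CYP3A5 were lower. Of the 122 members, 22 were higher in HEP3B (18.0%, 16 genes), where 14.5% of all probe sets were higher at an adjusted p under 0.05 (limma with Benjamini-Hochberg adjustment over 54613 probe sets). The other way, 15 were lower (12.3%, 10 genes), where 14.8% of all probe sets were lower. The arrays of the lines did not overlap for 25 members that were higher in HEP3B (20.5%, against 20.2% of all probe sets) and for 22 that were lower (18.0%, against 21.4%). The median difference was 0.02 on the log2 scale over the members and -0.01 over all probe sets.

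Among the conjugating enzymes, UGT2B4, which glucuronidates bile acids, had log2 levels of 11.25, 10.94 and 10.99 in HEP3B DMSO and 2.21, 2.55 and 2.93 in SNU-449 DMSO. The difference was 8.50 (limma adjusted p = 4.9e-09), and every HEP3B array lay far above every SNU-449 array. Here, and wherever a line is near the low end of the scale (SULT2A1, SULT1C4, CYP1B1 and CYP24A1), a log2 difference may understate the true one and is not an exact size. SULT1A1, a sulfotransferase of simple phenols, had 10.52, 10.77 and 10.42 (203615_x_at) in HEP3B DMSO and 5.06, 5.08 and 4.56 in SNU-449 DMSO, a difference of 5.67 (limma adjusted p = 2.6e-08). The suffix x_at marks probes that can also bind related transcripts, so that close SULT1A relatives may add to this signal. SULT2A1, which sulfates dehydroepiandrosterone and bile acids, had 8.73, 8.65 and 8.61 (206293_at) in HEP3B DMSO and 3.37, 3.02 and 3.05 in SNU-449 DMSO (difference 5.51, limma adjusted p = 5.1e-09). These 3 enzymes were at high levels on all HEP3B arrays and at low levels on all SNU-449 arrays. Smaller differences toward HEP3B were those of SULT1C2, a sulfotransferase known for phenolic substrates, with 2.52 (205342_s_at) and 2.37 (211470_s_at), of UGT2A3 with 2.83 and of UGT2B28 with 1.12 (211682_x_at), all past the threshold in limma. The UGT2B28 probe set also has the suffix x_at, so that close UGT2B relatives may add to its signal. SULT1C4, of the same subfamily as SULT1C2, ran the other way, with 3.40, 3.12 and 3.57 in HEP3B DMSO and 6.76, 7.46 and 7.44 in SNU-449 DMSO (difference -3.86, limma adjusted p = 9.9e-07).

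Of the P450 genes, CYP39A1, which hydroxylates 24-hydroxycholesterol on the way to bile acids, differed by 3.45 (1553977_a_at), 4.70 (220432_s_at) and 1.10 (244407_at), higher in HEP3B with each of its 3 probe sets. CYP27A1, the sterol 27-hydroxylase of the mitochondrion, was present in both lines, with 8.01, 8.04 and 7.87 in HEP3B DMSO and 7.58, 7.73 and 7.64 in SNU-449 DMSO (difference 0.32, limma adjusted p = 0.035). CYP2R1, the vitamin D 25-hydroxylase, averaged 7.81 in HEP3B and 6.02 in SNU-449 (difference 1.79, limma adjusted p = 1.1e-04), and CYP1A1, which oxidises polycyclic aromatic hydrocarbons, averaged 6.69 and 4.67 (difference 2.02, limma adjusted p = 4.6e-05). CYP26B1, which clears retinoic acid, averaged 6.81 in HEP3B and 6.83 in SNU-449, and its difference of -0.02 was within the spread of the arrays. CYP1B1, an extrahepatic P450 that oxidises oestradiol and aromatic hydrocarbons, was lower in HEP3B by a wide margin: 202437_s_at had 2.97, 3.07 and 3.06 in HEP3B DMSO and 9.43, 9.36 and 9.41 in SNU-449 DMSO (difference -6.36, limma adjusted p = 7.3e-10). Its probe sets 202436_s_at and 202435_s_at differed by -5.50 and -4.53, while 202434_s_at was near 3 in both lines. CYP24A1, which inactivates vitamin D, averaged 3.36 in HEP3B and 7.53 in SNU-449 (difference -4.17, limma adjusted p = 1.5e-05). CYP2U1, a fatty acid hydroxylase, differed by -3.41 (226402_at) and -1.41 (226393_at). CYP3A5, an enzyme of the drug-oxidising CYP3A group, was lower in HEP3B by 0.83 (205765_at), 2.31 (214234_s_at) and 2.35 (214235_at).

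**Figure D1:**
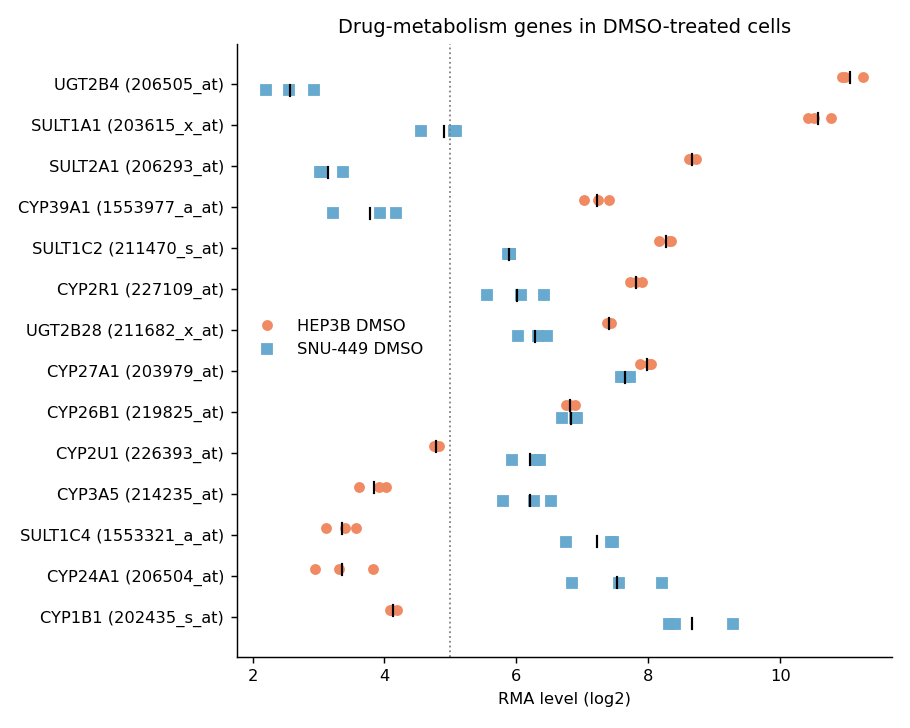
Log2 RMA levels (x axis) of 14 genes in DMSO-treated cells, 1 probe set per gene, with a circle for each HEP3B array, a square for each SNU-449 array, a black line at each group mean and a dotted line at log2 5. UGT2B4, SULT1A1 and SULT2A1 sit far right in HEP3B, and CYP1B1, CYP24A1 and SULT1C4 far right in SNU-449, while CYP26B1 overlaps.

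In SNU-449 cells treated with DAAD-2, CYP3A5, SULT1C2 and CYP1B1 rose, and no other member passed the test. The rises were between 1.87-fold and 5.13-fold, and they were seen with 3, 2 and 2 of the 4 probe sets that each gene has. In total 7 members were higher (5.74%), where 1.04% of all probe sets were higher at an adjusted p under 0.05, and 0 members were lower, where 0.417% of all probe sets were (limma, Benjamini-Hochberg over 54613 probe sets). At an unadjusted p under 0.05 there was 1 lower (0.820%, against 5.80% of all probe sets). With a fold over 1.5 as well, 9 were higher (7.38%, against 1.84%) and 1 was lower (0.820%, against 1.45%). The 3 groups of probe sets belong to 3 genes, so that the 7 calls are not 7 separate findings. Without DAAD-2 replicate 2, the array with the high GAPDH ratio, 7 members were again higher and 1, CYP26B1, was lower.

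CYP3A5 had the highest rise. Probe set 205765_at had log2 levels of 6.52, 6.23 and 6.49 in SNU-449 DAAD-2 and 4.27, 4.05 and 3.85 in SNU-449 DMSO, a log2 fold change of 2.36 (SE 0.14, n = 3 arrays each, 5.13-fold, limma adjusted p = 7.3e-04). Probe set 214234_s_at had 7.58, 7.72 and 7.69 in SNU-449 DAAD-2 and 5.99, 5.76 and 6.02 in SNU-449 DMSO (1.74, SE 0.12, 3.35-fold, limma adjusted p = 7.7e-04). In 214235_at the levels were 8.21, 8.11 and 7.29 in SNU-449 DAAD-2 and 6.27, 5.80 and 6.53 in SNU-449 DMSO (1.67, SE 0.26, 3.17-fold, limma adjusted p = 0.0235). In all 3 the lowest DAAD-2 array was above the highest DMSO array. The call of 214235_at was lost without DAAD-2 replicate 1 (adjusted p = 0.101, limma) and without DMSO replicate 1 (0.07), 2 (0.0981) or 3 (0.0724), while 205765_at and 214234_s_at passed with any 1 of the 6 arrays left out. The other CYP3A5 probe set, 243015_at, had 3.34, 3.52 and 3.12 in SNU-449 DAAD-2 and 3.20, 3.12 and 3.14 in SNU-449 DMSO (0.17, limma adjusted p = 0.702), with overlapping groups near the low end of the scale.

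The neighbours of CYP3A5 in the CYP3A cluster on chromosome 7 did not pass the test in SNU-449. CYP3A4, the most abundant drug-oxidising P450 of the adult liver, has 5 probe sets, whose log2 fold changes lay between -0.13 and 0.44. Of these, 205998_x_at had 5.01, 5.04 and 4.95 in SNU-449 DAAD-2 and 5.44, 4.82 and 5.03 in SNU-449 DMSO, with the DAAD-2 arrays inside the DMSO range. The 95% interval of its difference was -0.46 to 0.26, which does not reach the changes of CYP3A5. Its levels were near log2 5, and with the suffix x_at close CYP3A relatives may add to its signal. The interval may therefore not be that of CYP3A4 alone. CYP3A43 has 4 probe sets with changes between -0.04 and 0.22. The upstream sequences of CYP3A5 and CYP3A4 are shown because the promoters of both hold ER6, an everted repeat made of TGAACT, 6 bases of any kind and AGGTCA, which is known as a binding element of the pregnane X receptor, while their probe sets differed in these arrays. They are the 250 bases before the RefSeq start (GRCh38.p14, minus strand, chr7:99679997-99680246 for CYP3A5 and chr7:99784185-99784434 for CYP3A4), with ER6 in capitals.
CYP3A5: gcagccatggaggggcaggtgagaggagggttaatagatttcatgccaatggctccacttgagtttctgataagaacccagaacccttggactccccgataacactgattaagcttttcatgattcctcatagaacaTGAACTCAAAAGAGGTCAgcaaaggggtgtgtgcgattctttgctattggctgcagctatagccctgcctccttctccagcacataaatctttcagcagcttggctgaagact
CYP3A4: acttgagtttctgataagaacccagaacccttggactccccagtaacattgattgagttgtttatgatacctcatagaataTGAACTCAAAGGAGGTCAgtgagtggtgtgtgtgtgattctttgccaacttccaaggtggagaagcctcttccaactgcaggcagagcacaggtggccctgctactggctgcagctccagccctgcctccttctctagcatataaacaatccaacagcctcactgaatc
ER6 covers the bases from -113 to -96 before the start of CYP3A5 and from -169 to -152 before that of CYP3A4. Searched on both strands, it occurred in 3 of 35116 promoter windows of this length (0.00854%), of which 2 are these. Both are shown because they hold ER6, so that their 2 matches are no separate finding. The parts of ER6 are searched separately here and overlap it: AGGTCA occurred in 12.1% and TGAACT in 8.80% of all windows. Promoters were matched for 46 of the 64 genes (63 windows), of which 22.2% held AGGTCA and 15.9% TGAACT. CYP1B1 was not among these 46. The xenobiotic element core GCGTG occurred in 32.2% of all windows and in 20.6% of those of the members. For the TATA box TATAAA these shares were 10.7% and 28.6%. A match of letters is a description and not a site of binding.

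**Figure D2:**
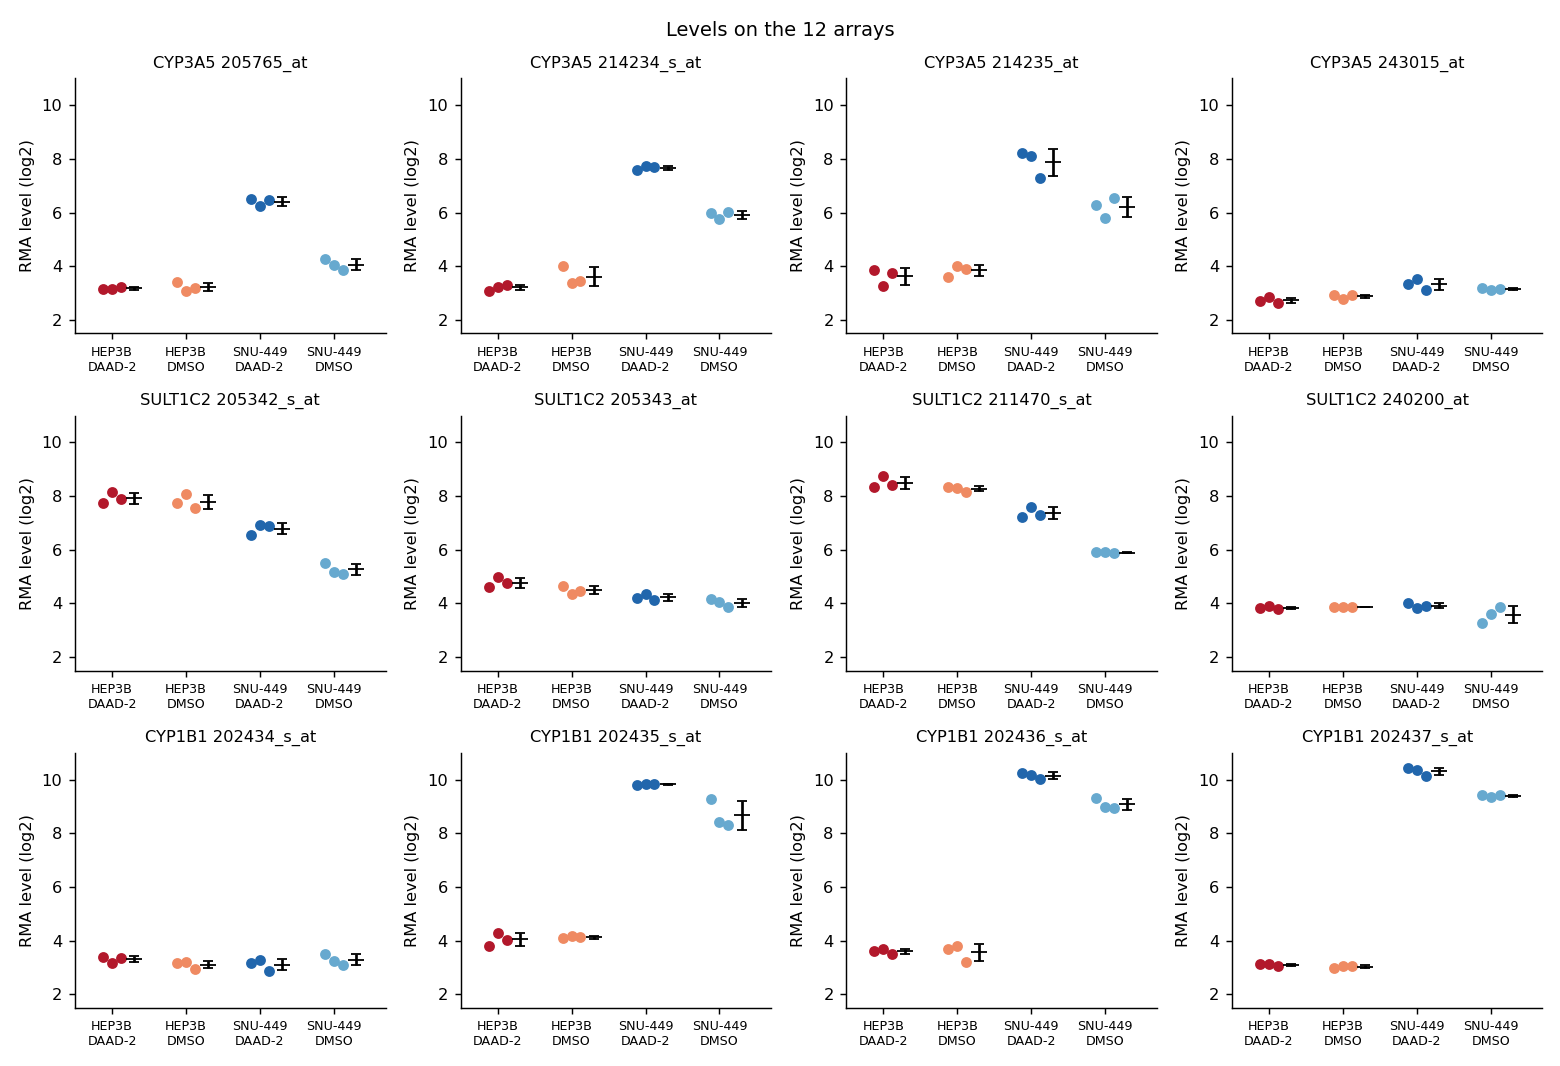
Log2 RMA levels (y axis) of the 12 probe sets of CYP3A5, SULT1C2 and CYP1B1 on the 12 arrays, 1 gene per row, with a point per array and the mean ± SD (n = 3) beside each group. In SNU-449 all DAAD-2 points lie above all DMSO points in 8 of the 12 probe sets, and in HEP3B most DAAD-2 and DMSO points lie at the same height.

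SULT1C2 rose with 2 probe sets. Probe set 205342_s_at had 6.55, 6.91 and 6.88 in SNU-449 DAAD-2 and 5.51, 5.18 and 5.11 in SNU-449 DMSO (log2 fold change 1.51, SE 0.15, n = 3 arrays each, 2.85-fold, limma adjusted p = 0.00427). Probe set 211470_s_at had 7.22, 7.61 and 7.29 in SNU-449 DAAD-2 and 5.90, 5.90 and 5.88 in SNU-449 DMSO (1.48, SE 0.13, 2.78-fold, limma adjusted p = 0.00231). The groups stood clear of each other in both, and both calls held with any 1 of the 6 arrays left out. The levels of DAAD-2-treated SNU-449 remained under those of HEP3B, whose DAAD-2 arrays had 8.34, 8.74 and 8.41 in 211470_s_at. The remaining probe sets 205343_at (0.21, limma adjusted p = 0.61) and 240200_at (0.34, limma adjusted p = 0.464) were at means under log2 5. SULT1C4, a neighbour on chromosome 2, had 7.33, 7.52 and 7.48 in SNU-449 DAAD-2 and 6.76, 7.46 and 7.44 in SNU-449 DMSO (0.22, SE 0.19, limma adjusted p = 0.759), with overlapping groups. The upstream sequence of SULT1C2 is shown because this gene rose as well (GRCh38.p14, plus strand, chr2:108288645-108288894, 250 bases before the RefSeq start). The capitals mark TGAACT on each strand and TGACNNNGC, the core of the antioxidant response element, on the opposite strand, where it overlaps AGGTCA.
SULT1C2: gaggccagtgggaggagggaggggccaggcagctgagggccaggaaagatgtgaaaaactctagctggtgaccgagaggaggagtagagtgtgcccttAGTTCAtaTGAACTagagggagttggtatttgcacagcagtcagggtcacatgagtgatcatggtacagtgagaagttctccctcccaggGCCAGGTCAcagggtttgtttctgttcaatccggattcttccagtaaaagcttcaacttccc
The TGAACT hexamers lie at -152 to -147 (opposite strand) and -144 to -139, and the overlapping pair lies at -62 to -54 and -59 to -54. TGACNNNGC occurred in 10.9% of all windows and in 9.52% of those of the members.

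**Figure D3:**
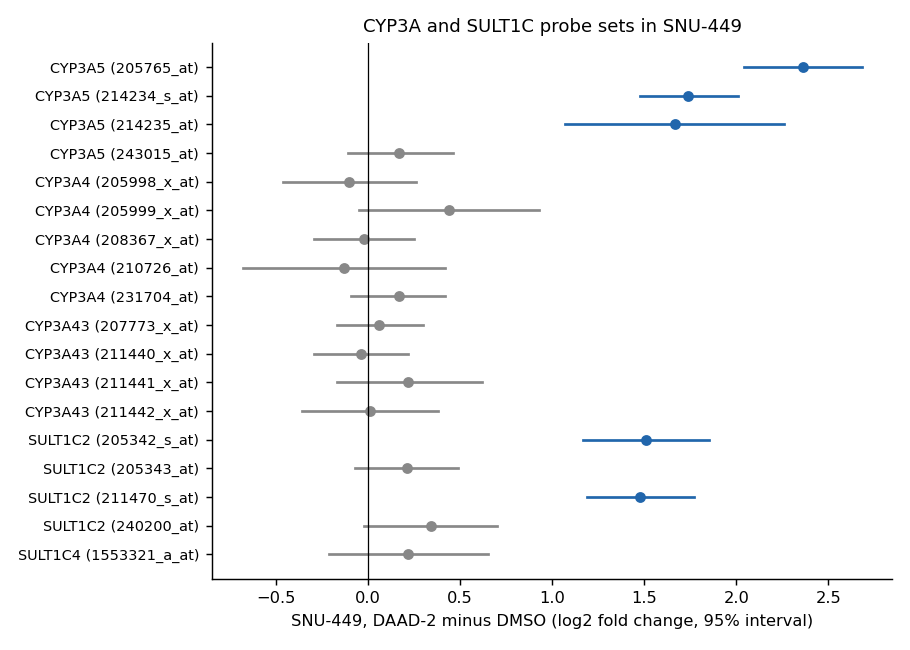
Log2 fold changes of DAAD-2 over DMSO in SNU-449 (x axis) for the CYP3A and SULT1C probe sets, with the mean difference as a point, its 95% interval from limma as a bar, and blue for an adjusted p under 0.05. Of 18 probe sets, 3 of CYP3A5 and 2 of SULT1C2 stand to the right, and the others have intervals that reach 0.

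CYP1B1, already high in SNU-449, rose by a smaller factor. Probe set 202437_s_at had 10.42, 10.34 and 10.14 in SNU-449 DAAD-2 and 9.43, 9.36 and 9.41 in SNU-449 DMSO (0.90, SE 0.11, n = 3 arrays each, 1.87-fold, limma adjusted p = 0.0107). Probe set 202436_s_at had 10.26, 10.17 and 10.01 in SNU-449 DAAD-2 and 9.32, 8.96 and 8.95 in SNU-449 DMSO (1.07, SE 0.14, 2.10-fold, limma adjusted p = 0.0112). No DAAD-2 array overlapped a DMSO array. Both calls were lost without DAAD-2 replicate 1 (adjusted p = 0.0664 for 202436_s_at and 0.0609 for 202437_s_at, limma), without DMSO replicate 2 (0.071 each) and without DMSO replicate 3 (0.0728 and 0.0724). In 202435_s_at the levels were 9.81, 9.82 and 9.83 in SNU-449 DAAD-2 and 9.29, 8.40 and 8.31 in SNU-449 DMSO. That difference of 1.16 did not pass (limma adjusted p = 0.0551), with DMSO replicate 1 nearer to the DAAD-2 arrays than to the other DMSO arrays, and without it the adjusted p was 0.00684. The CYP1 relatives that share the aryl hydrocarbon receptor as a known regulator did not pass: CYP1A1 had 4.42, 4.18 and 5.17 in SNU-449 DAAD-2 and 4.75, 4.24 and 5.01 in SNU-449 DMSO (-0.08, limma adjusted p = 0.957), and the CYP1A2 probe sets had changes of 0.21 and -0.05. Of 7 genes of the aryl hydrocarbon receptor pathway 0 passed in SNU-449 (limma), while the DAAD-2 arrays were all above the DMSO arrays for 4 of them, where this held for 8.34% of all probe sets. The 4 were ARNT, the partner of the receptor, with a change of 0.57 (limma adjusted p = 0.097), its repressor AHRR with 0.36, NQO1, a reductase that it shares with NRF2 as a target, with 0.34, and TIPARP with 0.11. The receptor AHR itself had a change of -0.10.

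Outside these genes the largest fold changes in SNU-449 were in vitamin metabolism, and they missed the threshold. CYP26B1 (219825_at) had 5.54, 6.36 and 5.68 in SNU-449 DAAD-2 and 6.92, 6.69 and 6.89 in SNU-449 DMSO (-0.97, SE 0.20, limma adjusted p = 0.0619). All DAAD-2 arrays were under all DMSO arrays, with replicate 2 the nearest, and without that replicate the change was -1.23 (limma adjusted p = 0.0091). CYP2R1 (227109_at) had 6.95, 6.89 and 6.84 in SNU-449 DAAD-2 and 5.56, 6.42 and 6.07 in SNU-449 DMSO (0.88, SE 0.20, limma adjusted p = 0.0786), again without overlap. It passed with all 12 arrays in one fit (adjusted p = 0.0108, limma), with the filter on dim probe sets (0.0443) and with 1 probe set per gene (0.0385). CYP24A1 had 7.68, 7.96 and 8.56 in SNU-449 DAAD-2 and 8.21, 7.55 and 6.84 in SNU-449 DMSO (0.54, SE 0.33), and its groups overlapped. By role, none of the 14 UGT probe sets (changes from -0.14 to 0.23), of the 21 of fatty acid and eicosanoid P450 genes (-0.27 to 0.30), of the 9 of cholesterol and bile acid P450 genes (-0.08 to 0.21) and of the 13 of steroid hormone P450 genes (-0.23 to 0.15) passed the test in SNU-449 with limma. The median change over the 122 members was 0.07, against 0.01 over all probe sets. The DAAD-2 arrays were all above the DMSO arrays for 11 members (9.02%, against 8.34% of all probe sets) and all below for 2 (1.64%, against 7.76%).

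In HEP3B cells treated with DAAD-2 no member passed the test, and none of the 54613 probe sets did (limma, Benjamini-Hochberg adjustment). At an unadjusted p under 0.05, 16 members were lower (13.1%, 13 genes), where 5.47% of all probe sets were lower, and 3 were higher (2.46%), where 9.53% of all probe sets were higher. With a fold over 1.5 as well, 0 members were higher, against 1.42% of all probe sets, and 1 was lower (0.820%, against 0.201%). The DAAD-2 arrays lay all below the DMSO arrays for 21 members (17.2%, against 9.99% of all probe sets) and all above for 2 (1.64%, against 11.0%). In all, 86 of the 122 log2 fold changes were negative (70.5%, against 55.1% of all probe sets). Many of these members were dim in HEP3B. Of the 22 members with a mean over log2 5 on the 6 HEP3B arrays, 17 had a negative change (77.3%, against 29% of the 17003 such probe sets), with a median of -0.13 (against 0.13) and a range from -0.61 to 0.51. Some genes have several of these probe sets, so that the 17 are not 17 separate findings. In HEP3B DMSO, 21 probe sets of 16 genes were present. Over the 36 members present in any group of either line, 27 changes were negative and the median was -0.08, against 0.11 over all probe sets so present. The median over all 122 was -0.08, against -0.02 over all probe sets, and it was -0.02 when the arrays were centred on their medians. Centring moves all probe sets of an array by the same amount, so that this centred value is not comparable with the uncentred -0.02 over all probe sets. Of the 9 hepatocyte genes 0 passed in HEP3B (limma), and the DAAD-2 arrays were all below the DMSO arrays for 5 of them, where this held for 9.99% of all probe sets. Their changes were -0.43 for AFP (limma adjusted p = 0.158), -0.45 for APOA1 (0.169), -0.36 for SERPINA1 (0.144), -0.32 for TTR (0.15) and -0.06 for ALB (0.796). Over the 9 genes the mean level per array was 10.68 to 10.78 in HEP3B DAAD-2 and 10.87 to 10.95 in HEP3B DMSO, and its part in the lower levels of members was not tested.

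The member with the smallest p in HEP3B was CYP39A1. Probe set 1553977_a_at had 6.64, 6.46 and 6.73 in HEP3B DAAD-2 and 7.02, 7.24 and 7.40 in HEP3B DMSO (-0.61, 95% interval -0.90 to -0.32, limma adjusted p = 0.0986), and its other probe sets had changes of -0.49 (220432_s_at) and -0.32 (244407_at). UGT2B4 had 10.70, 10.86 and 10.57 in HEP3B DAAD-2 and 11.25, 10.94 and 10.99 in HEP3B DMSO (-0.35, limma adjusted p = 0.227). SULT1A1 (215299_x_at) had 9.93, 9.84 and 10.09 in HEP3B DAAD-2 and 10.28, 10.60 and 10.26 in HEP3B DMSO (-0.42, limma adjusted p = 0.169). In each of these 3 probe sets all DAAD-2 arrays were below all DMSO arrays, by margins that did not pass the test. UGT2B28 (211682_x_at) had 6.60, 7.27 and 6.95 in HEP3B DAAD-2 and 7.43, 7.40 and 7.37 in HEP3B DMSO (-0.46, limma adjusted p = 0.227), with a wide spread among the DAAD-2 arrays. CYP2U1 (226393_at, -0.51, limma adjusted p = 0.137) and UGT1A1 (232655_at, -0.49, limma adjusted p = 0.201) were at means under log2 5. SULT2A1, by contrast, had 8.55, 8.65 and 8.75 in HEP3B DAAD-2 and 8.73, 8.65 and 8.61 in HEP3B DMSO, a difference of -0.01 with a 95% interval of -0.23 to 0.21. The highest positive change was that of CYP1A1, with 6.83, 7.45 and 7.33 in HEP3B DAAD-2 and 6.86, 6.48 and 6.72 in HEP3B DMSO (0.51, 95% interval 0.12 to 0.91, limma adjusted p = 0.218), where DAAD-2 replicate 1 lay inside the DMSO range.

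**Figure D4:**
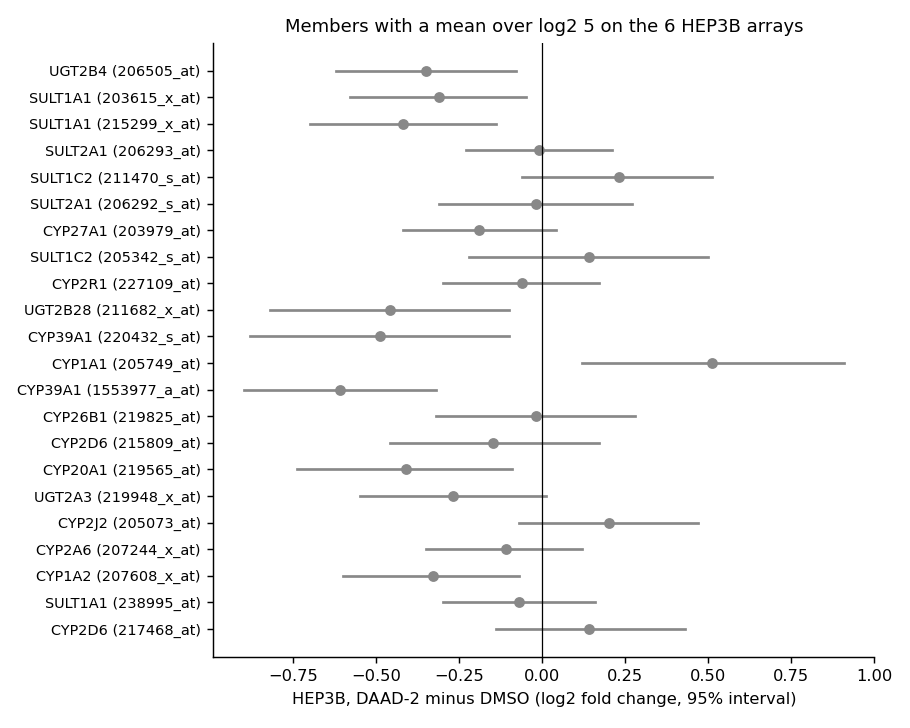
Log2 fold changes of DAAD-2 over DMSO in HEP3B (x axis) for the 22 members with a mean over log2 5 on the 6 HEP3B arrays, ordered from the highest mean level at the top, with the difference as a point and its 95% interval from limma as a bar. The points lie between -0.61 and 0.51, 17 of them left of 0.

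The difference between the lines in the effect of DAAD-2 was tested directly, as HEP3B minus SNU-449 in a fit over the 12 arrays. It was lower for 8 members (6.56%), where 0.797% of all probe sets were lower, and higher for 0, where 1.21% of all probe sets were higher (adjusted p under 0.05, limma). The 8 are probe sets of the same 3 genes that rose in SNU-449. In CYP3A5 the difference was -2.41 (205765_at, SE 0.18, limma adjusted p = 5.4e-05), -2.15 (214234_s_at, SE 0.21, adjusted p = 4.0e-04) and -1.88 (214235_at, SE 0.35, adjusted p = 0.0168). On the HEP3B side 205765_at had 3.16, 3.14 and 3.23 in DAAD-2 and 3.40, 3.08 and 3.20 in DMSO (-0.05, 95% interval -0.30 to 0.19), so that the levels were low and overlapping there. In 214234_s_at HEP3B had 3.10, 3.23 and 3.31 in DAAD-2 and 4.01, 3.39 and 3.45 in DMSO, lower without overlap (-0.41, limma adjusted p = 0.3). In 214235_at it had 3.86, 3.27 and 3.76 in DAAD-2 and 3.61, 4.02 and 3.91 in DMSO, with overlap (-0.22, limma adjusted p = 0.599). All these HEP3B levels were under log2 5, and both changes add to the differences between the lines. SULT1C2 was well expressed in HEP3B, with 7.73, 8.14 and 7.91 in DAAD-2 and 7.75, 8.07 and 7.54 in DMSO (205342_s_at, 0.14, 95% interval -0.22 to 0.50). Its differences between the lines were -1.37 (205342_s_at, SE 0.23, limma adjusted p = 0.0109) and -1.25 (211470_s_at, SE 0.18, adjusted p = 0.00569). In CYP1B1 they were -1.24 (202435_s_at, SE 0.29, limma adjusted p = 0.0487), -1.04 (202436_s_at, SE 0.22, adjusted p = 0.0289) and -0.83 (202437_s_at, SE 0.13, adjusted p = 0.00921), with HEP3B levels between 2.97 and 4.29 on all its arrays. With 1 of the 12 arrays left out at a time, 202435_s_at passed in 1 of 12 fits and 202436_s_at in 4 of 12, while the other 6 passed in 12 of 12. CYP26B1 (0.95, limma adjusted p = 0.0903) and CYP2R1 (-0.94, limma adjusted p = 0.063) missed the threshold.

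**Figure D5:**
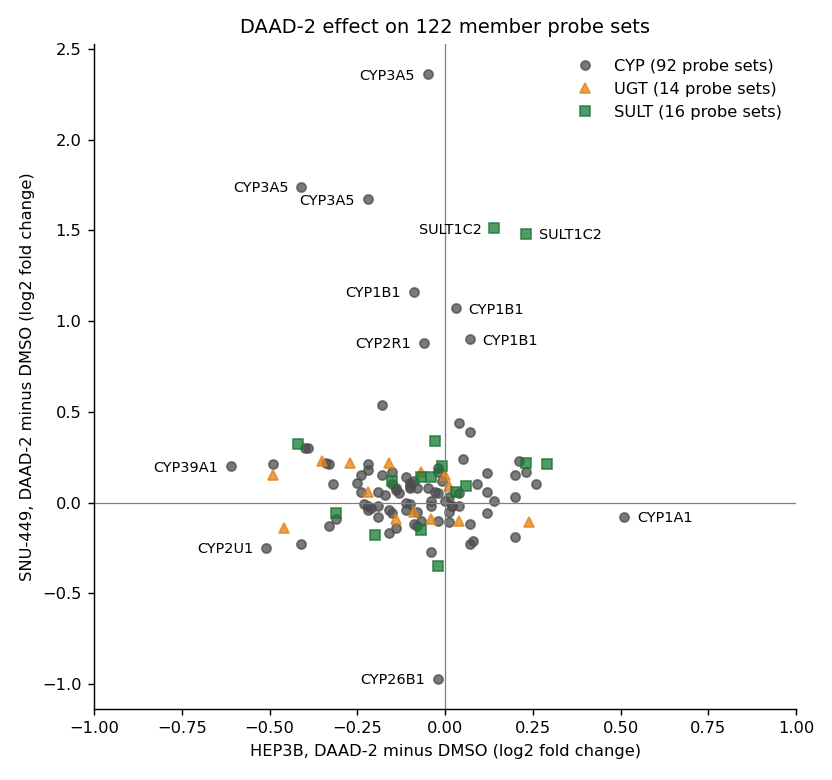
Log2 fold change of DAAD-2 over DMSO in HEP3B (x axis) and in SNU-449 (y axis), a point for each of the 122 member probe sets, with CYP, UGT and SULT genes in different symbols. Most points lie within 0.5 of 0 on both axes, and CYP3A5, SULT1C2 and CYP1B1 stand apart upward on the SNU-449 axis.

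The proteins that serve these enzymes were counted from lists of 1 probe set per gene. In SNU-449 with DAAD-2, 3 of 8 measured P450 partner and haem genes rose and 0 fell, where 1.04% and 0.417% of all probe sets did (limma). CYB5A, the cytochrome b5 that passes electrons to P450 enzymes, had 9.88, 9.94 and 9.86 in SNU-449 DAAD-2 and 9.27, 9.33 and 9.16 in SNU-449 DMSO (0.64, limma adjusted p = 0.026). BLVRB, a biliverdin reductase, had 9.70, 9.37 and 9.62 in SNU-449 DAAD-2 and 8.49, 8.76 and 8.31 in SNU-449 DMSO (1.04, limma adjusted p = 0.0166). HMOX1, the haem oxygenase that opens the haem ring, had 9.51, 9.22 and 9.39 in SNU-449 DAAD-2 and 8.69, 8.61 and 8.62 in SNU-449 DMSO (0.73, limma adjusted p = 0.0233). These groups did not overlap, and the members that rose include 2 of haem breakdown. POR, the cytochrome P450 reductase, had 6.23, 6.27 and 6.54 in SNU-449 DAAD-2 and 5.94, 5.59 and 5.65 in SNU-449 DMSO (0.62, limma adjusted p = 0.0771).

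Of 7 genes that supply the cofactors of UGT and SULT enzymes, 2 rose and 0 fell in SNU-449, against the same 1.04% and 0.417% of all probe sets. PAPSS2, which makes the sulfate donor PAPS, had 10.75, 10.63 and 10.92 in SNU-449 DAAD-2 and 9.89, 9.83 and 9.95 in SNU-449 DMSO (0.87, limma adjusted p = 0.013). UGDH, which makes UDP-glucuronic acid, had 11.76, 11.59 and 11.65 in SNU-449 DAAD-2 and 10.99, 10.65 and 11.10 in SNU-449 DMSO (0.76, limma adjusted p = 0.0376). Of 8 xenobiotic and bile acid receptors and their partners 1 rose, PPARA, the fatty acid receptor (0.68, limma adjusted p = 0.026). Among 17 other drug-metabolising enzymes 2 rose, namely NNMT, the nicotinamide methyltransferase (1.08, limma adjusted p = 0.017), and EPHX2, the soluble epoxide hydrolase (0.69, limma adjusted p = 0.0337). The means of PPARA, NNMT and EPHX2 were 4.66, 4.37 and 4.59 in SNU-449 DMSO and 5.34, 5.45 and 5.27 in SNU-449 DAAD-2. These rises thus start under log2 5, where a change is hard to measure on these arrays. None of 6 hydrolases of sulfates and glucuronides passed. In HEP3B no gene of these 6 lists passed, and between the lines the effect was lower in HEP3B for POR, CYB5A, BLVRB, PPARA, FMO5, NNMT and HNMT and higher for MAOB (limma, adjusted p under 0.05), where 0.797% of all probe sets were lower and 1.21% higher. On these whole-culture arrays less RNA per cell and fewer cells that hold it cannot be told apart.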

How the data were processed

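The deposited log2 values came from the authors' RMA processing of Affymetrix Human Genome U133 Plus 2.0 arrays of total RNA, as the sample records state. RMA corrects the background, normalizes quantiles between arrays and summarises probes, and which version was used is not given. After 62 control probe sets were left out, limma 3.58.1 in R 4.3.3 was fitted to 54613 probe sets with no filter on low values, per line, between the DMSO groups, and over 12 arrays for the difference between the lines. P-values are two-sided and Benjamini-Hochberg adjusted, with calls under 0.05. With 3 against 3 arrays the smallest two-sided exact p is 0.1. Of the probe sets, 41091 carry 1 symbol in the platform annotation, 1801 several and 11721 none. Depth does not apply to arrays, and their number limits the precision. The members and lists were chosen with earlier results of these data known. Named were all called members with all their probe sets, the 8 genes with the highest level per line, uncalled members with a fold over 1.5 or the 6 smallest p, near relatives, and up to 4 called genes per list. Lists were those of P450 partners, the aryl hydrocarbon receptor pathway, receptors, cofactors, hydrolases, other enzymes, and hepatocyte, mesenchymal, leukocyte, and endothelial and stellate markers. Motifs were counted in RefSeq promoter windows of GRCh38.p14. The method was tested on simulated data. Python 3.11.15 was used for tables and matplotlib 3.10.9 for figures.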

Additional observations from a re-analysis of the deposited data

Results flagged for a closer look

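Of the results above, 8 are given again because a test of the difference between the lines in the effect of DAAD-2 passed for them (HEP3B minus SNU-449, log2 scale, limma adjusted p under 0.05). They are CYP3A5 with -2.41, -2.15 and -1.88 in 205765_at, 214234_s_at and 214235_at, SULT1C2 with -1.37 and -1.25 in 205342_s_at and 211470_s_at, and CYP1B1 with -1.24, -1.04 and -0.83 in 202435_s_at, 202436_s_at and 202437_s_at. The dose was 2 μM in HEP3B and 20 μM in SNU-449, so that line and dose cannot be told apart. Groups of 3 arrays were not searched for single outlying arrays.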

How the results depend on the processing

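Comparisons were repeated with all 12 arrays in one fit, centred arrays, quantile normalization, cyclic loess, a filter on dim probe sets, a trend and robust variance, a replicate block, 1 probe set per gene, a fold rule (fold over 1.5 and unadjusted p under 0.05), and each array left out. No result reversed. Of the main values 135 stayed within their bounds and 21 moved, and of the changes of single probe sets 204 kept their side of the threshold, 17 passed it and 11 lost it. The 7 members higher in SNU-449 were 4 to 7 with an array left out and 4 with 1 probe set per gene, that is 4 genes in place of 3, with CYP2R1 added (adjusted p = 0.0385 in limma). Lower in SNU-449 was 1 member, CYP26B1, in place of 0 with 1 probe set per gene, 12 arrays in one fit, the dim filter (25 members tested), the trend and robust variance and the fold rule, and 0 to 1 with an array left out. In HEP3B 1 member was lower by the fold rule, and the median of -0.08 was -0.02 with centred arrays, -0.04 with cyclic loess, -0.05 with quantile normalization, -0.13 with the dim filter and -0.10 to -0.05 with an array left out. The median difference between the lines of 0.02 was 0.26 with the dim filter and -0.01 to 0.04 with an array left out. The 0 members with a higher effect in HEP3B were 1 by the fold rule and 0 to 1 with an array left out, and the 8 with a lower effect were 15 by the fold rule and 6 to 8 with an array left out. The cause of these shifts was not tested, apart from the fewer probe sets tested in the dim filter and with 1 probe set per gene.

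Replicate numbers are shared by the groups, but same-numbered arrays correlated by -0.27 to 0.09 in HEP3B and -0.08 to -0.01 in SNU-449 in their deviations from the group means, so the numbers were not read as pairs. With the replicate block 6 members in place of 7 were higher in SNU-449 (CYP3A5 214235_at had an adjusted p of 0.0737 in limma), 0 passed in HEP3B, and 5 in place of 8 had a lower effect in HEP3B. Levels under log2 5 were near the low end of the scale, where a change is hard to measure on these arrays.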
